A study of Mus musculus with 16 samples.

Results

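Among the granule cell (GC) nuclei of the mouse dentate gyrus (DG), 885 of 10390 carried at least 3 RNA molecules of *Ror1*, *Npnt*, *Il1rapl2* and *Tgfbr1* from at least 2 of these genes, and none of *Sorcs3*. They are called member nuclei here. A molecule is a unique molecular identifier (UMI), counted once however often it was sequenced. The 17015 nuclei with usable RNA and chromatin data held the 10390 GC nuclei, which had at least 3 UMIs over *Prox1*, *Rfx3*, *Glis3*, *Chst9*, *C1ql2* and *Plk5* and 0 UMIs of *Gad2*, *Mog*, *Pdgfra*, *Gja1* and *Inpp5d*. The UMIs of the 4 genes and of *Sorcs3* chose the members, so the levels of those 5 genes are given below without a test. The 6 genes that chose GC nuclei chose them in the same way for members and for the nuclei they are compared with, and their values are given as a description too. Member nuclei were compared with GC nuclei of the same mouse that had 0 UMIs of the 4 genes, up to 3 for each member and within 10% of its UMI count, which gave 1982 comparison nuclei for 880 members.

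The nuclei came from microdissected, frozen DG of 4 wild-type (WT, Nrg1 genotype VV) and 4 V321L mice, which are homozygous for a missense change in the transmembrane part of Neuregulin 1 (*Nrg1*). Each genotype had 2 females, F1 and F2, and 2 males, M1 and M2. Each mouse gave 1 Multiome library, in which the RNA and the accessible chromatin (ATAC) of a nucleus are read together. The study as a whole used adolescent to adult mice, and which of these ages gave these libraries was not given in the sources used here. WT libraries held 4326426 to 14624265 RNA UMIs and V321L libraries 15505354 to 23582057, with medians of 1123 to 1951.5 UMIs per nucleus in WT and 2709.5 to 4166 in V321L libraries. ATAC counts were 11953485 to 18352665 in WT and 6580616 to 25552769 in V321L libraries, and median mitochondrial shares 0.0697% to 0.130% and 0.390% to 1.17%. Libraries of different mice shared between 1 and 13 nucleus barcodes over the 28 pairs of libraries.

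GCs are the principal neurons of the DG. They receive cortical input in the molecular layer and send mossy fibers to CA3, and they differ among themselves in birth date, position and dendrite shape, semilunar granule cells (SGCs) being a rare form with several primary dendrites. *Ror1* encodes a receptor tyrosine kinase of the ROR family that binds Wnt5a, and *Npnt* encodes nephronectin, an extracellular matrix ligand of integrins. *Il1rapl2* encodes a member of the interleukin-1 receptor family whose close relative organizes synapses through receptor protein tyrosine phosphatases, and *Tgfbr1* encodes the type I receptor of transforming growth factor beta (TGF-beta). *Sorcs3*, which members had to lack, encodes a sortilin family sorting receptor that the study used to mark SGC-rich GC clusters.

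The 4 genes lie on 3 chromosomes. In the mm10 assembly *Npnt* (ENSMUSG00000040998) spans chr3:132881745-132950291, *Tgfbr1* (ENSMUSG00000007613) chr4:47353222-47414926, *Ror1* (ENSMUSG00000035305) chr4:100095791-100444806 and *Il1rapl2* (ENSMUSG00000059203) chrX:137570754-138849077. *Ror1* was the gene found most often, in 82.6% of member nuclei, followed by *Npnt* in 57.1%, *Tgfbr1* in 47.6% and *Il1rapl2* in 47.3%. Most members, 612, held exactly 2 of the 4 genes, while 240 held 3 and 33 held all 4. The commonest pair was *Ror1* with *Npnt*, the only rule genes in 193 members. *Il1rapl2* was found in 57.0% of the WT members and in 33.5% of the V321L members, and *Npnt* in 50.5% and 66.5%. The threshold ran through a dense range, since 375 members had exactly 3 UMIs, while 459 GC nuclei just outside had 2 UMIs from 2 genes and 285 had 3 or more UMIs of a single gene.

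Summed over members, the 4 genes reached 1238 CPM (UMI counts scaled to the same total in each mouse) in F1, 1425 in F2, 1476 in M1 and 1213 in M2 of the WT mice. In V321L members the sums were 805, 733, 778 and 800 CPM in the same order. Over all GC nuclei the sum was 458, 506, 434 and 371 CPM in WT and 200, 250.5, 268 and 204 CPM in V321L mice, so that the genotypes did not overlap. Of all genes tested in comparison nuclei, 61.4% differed between the genotypes (edgeR, adjusted p under 0.05). The genotype cannot be told apart from differences between the libraries. *Il1rapl2* had the largest ratio between the genotypes, at 118 ± 14.8 CPM in WT and 37.0 ± 12.1 CPM in V321L GC nuclei (SD, n = 4 each). *Ror1* stood at 177 ± 34.9 and 90.7 ± 8.66 CPM, *Tgfbr1* at 74.1 ± 17.4 and 44.6 ± 10.8 CPM, and *Npnt* at 73.3 ± 11.1 and 58.4 ± 6.82 CPM. These are levels per library and not per gene length, so they do not rank the genes.

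When members were chosen by only 3 of the genes, the gene left out was still higher in them than in comparison nuclei of most mice. *Ror1* was higher in 6 of 8 mice, with a median ratio of 2.43 in WT and 1.05 in V321L mice. *Npnt* was higher in 7 of 8 mice (median ratio 1.56), *Il1rapl2* in 7 of 8 (1.83) and *Tgfbr1* in 6 of 8 (1.36). These ratios rest on between 178 and 344 UMIs of the left-out gene over all 8 mice and are given as a description. Of 955 GC nuclei that met the rule for the 4 genes, 70 (7.33%) held a *Sorcs3* UMI, against 11.5% of all GC nuclei. The share was lower in 7 of 8 mice, by little in WT F2 (10.5% against 11.1%) and V321L M2 (10.4% against 11.5%), and higher in WT M1 (10.4% against 7.06%).

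The share of GC nuclei that were members did not differ between the genotypes beyond the spread between mice. It was 10.5% in F1, 9.64% in F2, 3.70% in M1 and 7.60% in M2 of the WT mice. In the V321L mice it was 4.69%, 13.7%, 11.5% and 5.05% in the same order. The ranges overlapped, though F2 and M1 of the V321L mice lay above every WT mouse and WT M1 below every V321L mouse, with a WT mean of 7.86% ± 3.02 and a V321L mean of 8.73% ± 4.56 (SD over 4 mice), and p = 0.743 in a two-sided exact permutation test. V321L nuclei held more UMIs, and a fixed number of UMIs is easier to reach in a deeper nucleus. The part of depth in these shares cannot be told apart from that of the genotype. With every nucleus thinned to 1000 UMIs, members made up 2.26%, 2.22%, 0.770% and 1.66% of the WT GC nuclei and 0.0923%, 0.413%, 0.339% and 0.238% of the V321L GC nuclei, and the order was reversed without overlap (exact permutation p = 0.0286, the smallest that 4 against 4 mice can give). Since 61.4% of the genes tested in comparison nuclei differed between the genotypes, this order is not shown to be particular to the 4 genes. The thinned V321L shares rest on 1, 5, 3 and 2 nuclei. They lie under 0.587%, the limit that 0 of 511 V321L oligodendrocyte nuclei allow, and the WT shares lie under the 5.08% that 0 of 59 WT oligodendrocyte nuclei allow. Those nuclei were not thinned and none met the rule, so neither genotype's thinned shares can be set against a measured background.

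**Figure D1:**
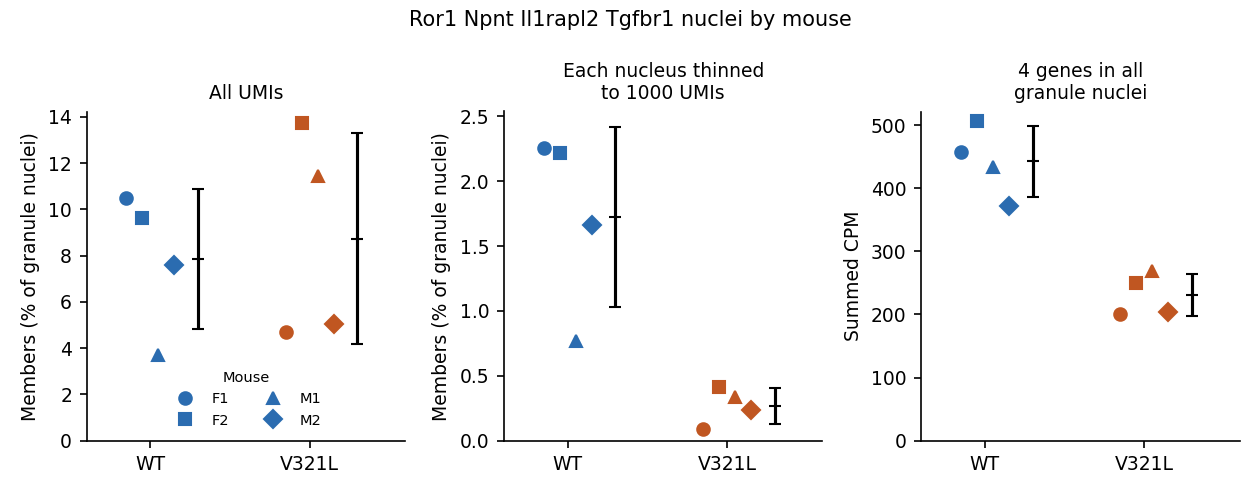
Member nuclei as a percentage of granule nuclei with all UMIs and after thinning to 1000 UMIs, and the summed CPM of the 4 rule genes over all granule nuclei, for each mouse (symbols), with mean and SD (bars, n = 4 mice). The genotypes overlap with all UMIs, while after thinning and in summed CPM every WT mouse lies above every V321L mouse.

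Outside GCs the same 4-gene rule was met by 0 of 570 oligodendrocyte nuclei, 4 of 592 astrocyte or radial glia nuclei, 5 of 237 GABAergic nuclei and 0 of 98 precursor nuclei. The upper limit for oligodendrocytes was 0.526% as 3 over the number of nuclei and 0.645% by the exact 95% interval. Microglia met it in 18 of 256 nuclei (7.03%, exact 95% interval 4.22% to 10.9%), and *Tgfbr1* reached 1718 CPM in WT and 2217 CPM in V321L microglia. Median UMIs were 1112 in oligodendrocytes and 949.5 in microglia, against 2670 in GC nuclei. Doublet scores above the library mean plus 2 SD were found for 49 members (5.54%), 5.35% of comparison nuclei and 3.79% of all GC nuclei. Members were deeper than GC nuclei at large. Matching left part of that gap in mice of both genotypes, with median UMIs of 3702.5 against 2952 in WT F1 and 5780 against 5061 in V321L F2 and members the deeper in every mouse, and removed nearly all of it in V321L F1, at 4406.5 against 4382.5.

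Members and comparison nuclei differed in 761 of 7241 genes tested (10.5% of the genes), 381 higher (5.26%) and 380 lower (5.25%) in members (edgeR quasi-likelihood test with mouse as a block, adjusted p under 0.05). The calbindin gene *Calb1*, the activin receptor gene *Acvr2a* and *Grb14* were higher in members. *Nrg1* itself, the glutamate receptor gene *Grm8*, the protocadherin gene *Pcdh7* and activity-regulated genes such as *Bdnf* were lower. Of the called genes, 177 were higher and 198 lower in members of every one of the 8 mice. Without the filter on low counts the balance was 239 higher and 632 lower of 22016 genes. Log2 fold changes below are members against comparison nuclei, and adjusted p-values are from edgeR with Benjamini-Hochberg adjustment over all genes tested. The median log2 fold change over all genes was 0.01.

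The comparison nuclei were not uniform. Nuclei with UMIs of at least 3 of *Nectin3*, *Sv2b*, *Kcnc2*, *Chrm3* and *Spock1*, 5 genes chosen after their values were seen, made up 177 of 1982 comparison nuclei (8.93%), 17 of 880 matched members (1.93%) and 340 of 10390 GC nuclei (3.27%). Among the comparison nuclei, those 177 had *Prox1*, the transcription factor that specifies GCs, at 35.2 CPM against 229 CPM in the rest. They had *Glis3* at 93.8 against 793 CPM and *Calb1* at 20.2 against 133 CPM. *Hs3st4*, a heparan sulfate sulfotransferase gene, was at 2509 against 145 CPM in them, and *Trps1*, a GATA-type repressor gene, at 2695 against 83.7 CPM. These values pool all mice, and in V321L M1 alone *Trps1* was at 63.9 against 55.8 CPM. *Grik4*, a kainate receptor gene from the list of CA pyramidal neuron genes, was at 536 against 155 CPM. They met the rule for GC nuclei with low levels of these GC genes, and they are given no name here. Added alternatives, chosen after seeing the data, therefore left those nuclei out or required at least 1 *Prox1* UMI in both groups.

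Without those nuclei 665 of 7035 genes were called (9.45%), 4.78% higher and 4.68% lower, and 561 of the 761 genes called in the full set were called again in the same direction. Requiring *Prox1* gave 426 of 5601 genes (7.61%), 3.70% higher and 3.91% lower, of which 366 were among the 761. Because members had to lack *Sorcs3* and comparison nuclei did not, a further alternative required 0 *Sorcs3* UMIs in comparison nuclei, which gave 477 of 7069 genes (6.75%), 3.23% higher and 3.52% lower. With *Prox1* required as well it gave 203 of 5219 genes (3.89%), 2.03% higher and 1.86% lower, of which 176 were among the 761. Of the matched nuclei, 544 members (61.8%) and 974 comparison nuclei (49.1%) had *Prox1*. Of the genes named by rule, leaving out those that chose GC nuclei, 28 passed the test in the same direction in the full set and under all 4 of these alternatives, 10 higher and 18 lower, and most of these are described first.

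*Calb1*, which encodes the calcium buffer calbindin and stands with *Ntng1* on the list of late GC maturation genes, was present at 230, 161, 160 and 172 CPM in WT members and at 294, 176, 175 and 259 CPM in V321L members (F1, F2, M1 and M2). In comparison nuclei it was at 130, 65.6, 121 and 107 CPM in WT and 142, 134, 111 and 199 CPM in V321L mice. Members were higher in every mouse, though the ranges over mice overlapped, with a log2 fold change of 0.72 ± 0.09 (SE, adjusted p = 1.6e-07 by edgeR), 0.57 without the 5-gene nuclei and 0.54 with *Prox1* required. *Chst9*, a sulfotransferase gene that was among those choosing GC nuclei of both groups, was at 601, 537, 454 and 381 CPM in WT members and 243, 356, 188 and 273 CPM in WT comparison nuclei. It was at 264, 297, 299 and 213 CPM in V321L members and 131, 154, 155 and 175 CPM in V321L comparison nuclei. Its levels did not overlap between the groups within either genotype (log2 fold change 0.84). The log2 fold changes of the other named genes of that choice were 0.54 for *Rfx3*, 0.41 for *Prox1* and -0.80 for *Plk5*.

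*Acvr2a*, which encodes a type II receptor of activins and so acts in the family of *Tgfbr1*, was at 554, 526, 570 and 463 CPM in WT members against 293, 303, 245 and 308 CPM in comparison nuclei. In V321L mice it was at 217, 230, 220 and 253 CPM against 137, 161, 143 and 153 CPM. The groups did not overlap within a genotype, and the log2 fold change of 0.73 ± 0.07 was 0.70 without the 5-gene nuclei and 0.71 with *Prox1*. *Acvr1c*, which encodes the type I receptor ALK7, went the other way, at 18.4, 49.3, 35.6 and 44.1 CPM in WT members and 108, 93.8, 70.9 and 85.7 CPM in WT comparison nuclei. In V321L mice it was at 34.1, 24.8, 34.6 and 30.4 CPM in members and 62.6, 61.1, 74.7 and 73.9 CPM in comparison nuclei. No member value reached any comparison value in the same genotype, and the log2 fold change was -1.25 ± 0.15.

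*Nrg1*, the gene that carries the V321L change, was at 309, 397, 392 and 362 CPM in WT members and at 1229, 1152, 925 and 763 CPM in WT comparison nuclei. In V321L mice it was at 277, 290, 275 and 223 CPM in members and 597, 699, 1067 and 447 CPM in comparison nuclei. The lowest comparison value exceeded every member value, and the log2 fold change was -1.47 ± 0.08 (edgeR adjusted p = 8.4e-18). Without the 5-gene nuclei it was -1.59 and with *Prox1* -1.54. It shrank to -0.94 when comparison nuclei also had to lack *Sorcs3*, and to -0.84 when both conditions were applied.

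*Grm8*, which encodes a presynaptic group III metabotropic glutamate receptor, was at 18.4, 45.4, 35.6 and 39.7 CPM in WT members against 153, 178, 128 and 146 CPM in comparison nuclei. In V321L mice it was at 25.6, 28.9, 32.9 and 30.4 CPM against 72.6, 81.3, 149 and 58.5 CPM. The groups did not overlap. Its log2 fold change of -1.96 ± 0.14 became -2.37 without the 5-gene nuclei and -1.13 with *Prox1* required and *Sorcs3* absent from both groups.

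*Pcdh7*, a protocadherin gene, was at 71.8, 99.9, 134 and 119 CPM in WT members and 458, 494, 298 and 325 CPM in WT comparison nuclei. In V321L mice it was at 106, 71.3, 76.2 and 60.8 CPM in members and 196, 206, 290 and 134 CPM in comparison nuclei. Members lay below comparison nuclei within each genotype, by -1.83 ± 0.12 on the log2 scale, and between -1.82 and -1.31 over the alternatives on the comparison nuclei. *Nrxn3*, which encodes a presynaptic neurexin, fell by 1.92, and *Cdh18*, a type II cadherin gene, fell by 1.504. *Ntng1*, which encodes the axonal adhesion protein netrin-G1 and served the study as a marker of GCs and of their late maturation, was at 317, 309, 516 and 447 CPM in WT members against 738, 609, 581 and 693 CPM, and at 413, 454, 497 and 482 CPM in V321L members against 726, 725, 777 and 736 CPM (log2 fold change -0.76 ± 0.07). It was thus lower in all 8 mice while *Calb1* was higher in all 8.

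*Bdnf*, the neurotrophin that neuronal activity induces, was at 40.5, 44.1, 26.7 and 30.9 CPM in WT members against 167, 82.2, 131 and 90.8 CPM in comparison nuclei. Among V321L mice it was at 128, 79.6, 109 and 81.1 CPM against 155, 168, 171 and 146 CPM. Members were lower in every mouse and without overlap within a genotype (log2 fold change -1.05 ± 0.13, and -0.57 under the strictest choice of nuclei). *Mapk4*, an atypical MAP kinase gene, was at 35, 48.0, 62.3 and 44.1 CPM in WT members against 144, 153, 113 and 111 CPM, and at 42.6, 52.7, 74.4 and 71.0 CPM in V321L members against 154, 159, 246 and 198 CPM. The groups did not overlap (log2 fold change -1.64 ± 0.11).

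**Figure D2:**
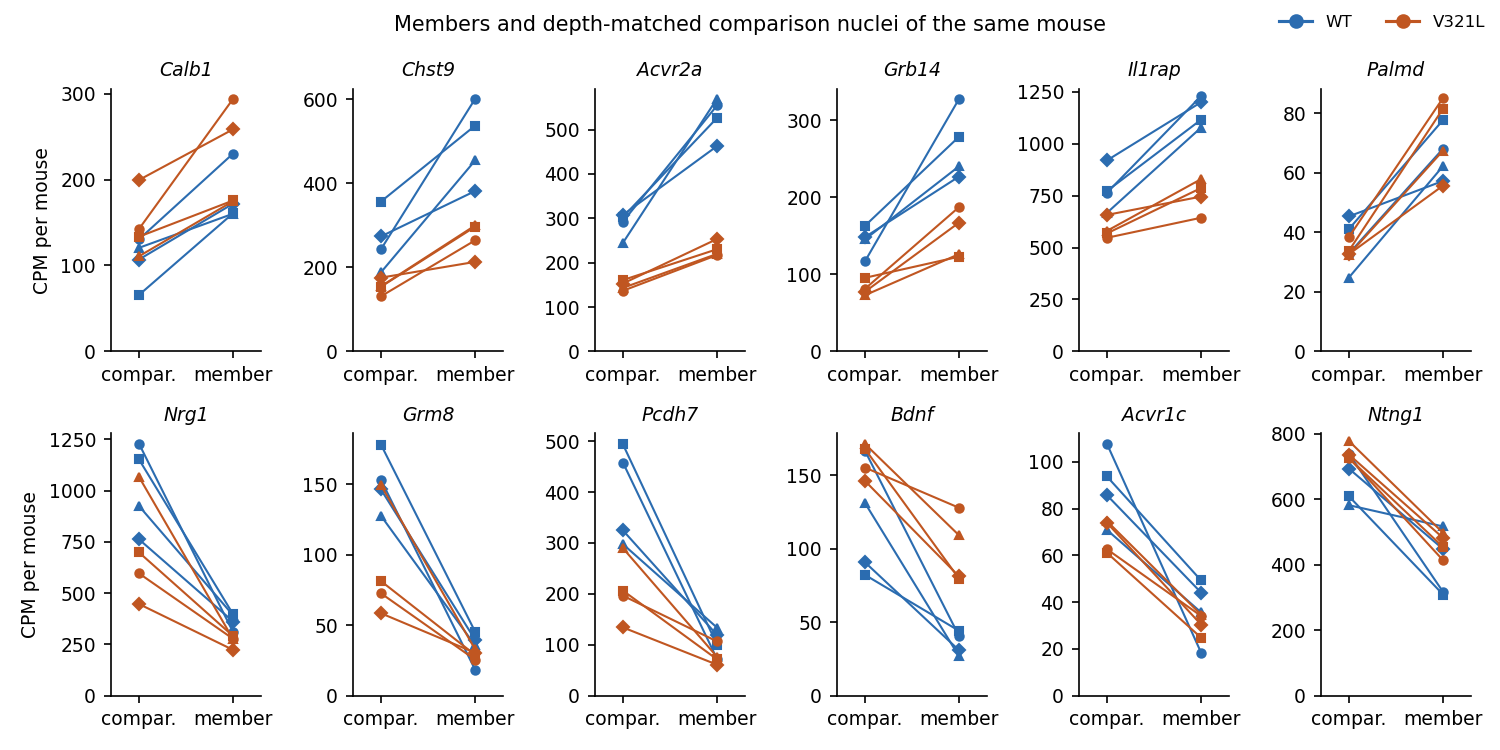
CPM of 12 genes in comparison nuclei (compar.) and members of the same mouse (lines; circle F1, square F2, triangle M1, diamond M2). Members are higher for the 6 genes in the upper row and lower for the 6 in the lower row in all 8 mice, as in *Nrg1*, where members lie between 223 and 397 CPM.

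Other named genes also rose under all of these choices. *Fbn1*, which encodes the microfibril protein fibrillin-1, was at 81.1, 70.03, 62.3 and 59.5 CPM in WT members against 35.2, 21.6, 42.5 and 37.3 CPM, and at 29.8, 31.0, 38.1 and 45.6 CPM in V321L members against 17.1, 17.2, 28.1 and 15.5 CPM (log2 fold change 1.004 ± 0.16). *Grb14*, an adaptor of the insulin receptor, was at 328, 279, 240 and 227 CPM in WT members against 117, 163, 145 and 148 CPM, and at 187, 123, 126 and 167 CPM in V321L members against 81.2, 95.5, 72.9 and 77.4 CPM (0.85 ± 0.10). *Palmd*, which encodes palmdelphin, was between 57.3 and 77.8 CPM in WT members and between 24.8 and 45.4 CPM in WT comparison nuclei, and rose by 0.97 ± 0.14. In none of these 3 genes did the groups overlap within a genotype. *Hdac1*, a histone deacetylase gene, rose by 0.81, *Etv1*, an ETS transcription factor gene, by 0.62, and *Trpc5*, a cation channel gene, by 0.75 (higher in 7 of 8 mice).

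Members of the interleukin-1 receptor family and of the partners of its synaptic receptors rose in 5 and fell in 0 of 15 genes tested, with a median of 0.19 (DESeq2 also 5 and 0, unadjusted p under 0.05 in 5 and 0), where 5.26% of all genes rose. The rises were 4 of 14 without the 5-gene nuclei (4.78% of all genes) and 3 of 13 with *Prox1* required, with *Sorcs3* absent (2.03%) or not (3.70%). *Il1rap*, which encodes the shared accessory receptor of interleukin-1 signalling, was at 1229, 1115, 1077 and 1199 CPM in WT members against 763, 772, 666 and 919 CPM. Its V321L levels were 643, 786, 829 and 745 CPM against 547, 568, 580 and 657 CPM, so members were higher in every mouse, by 0.47 ± 0.05. *Il1r1*, the receptor of interleukin-1 itself, rose by 0.70 and *Slitrk2*, a ligand of receptor phosphatases, by 0.60, but neither passed once *Prox1* was required. *Ntrk3*, the receptor of neurotrophin 3, rose by 0.33 and passed under each of these choices.

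Wnt and ROR pathway genes, the group of *Ror1*, changed in 2 of 16 genes tested (12.5%, against 10.5% of all genes), with a median of 0.02. *Znrf3*, a ubiquitin ligase that removes Wnt receptors, rose by 0.27, and *Prickle1*, of the planar polarity branch, fell by 0.17. Neither passed with *Sorcs3* absent from comparison nuclei. In the TGF-beta, activin and BMP group, the group of *Tgfbr1*, 1 gene rose and 6 fell of 25 tested (median -0.08, DESeq2 1 and 4), where 5.26% of all genes rose and 5.25% fell. The falls were 5 of 25 without the 5-gene nuclei (4.68% of all genes), 5 of 20 with *Prox1* required (3.91%) and 2 of 19 with *Sorcs3* absent too (1.86%), with 1 rise each time. Besides the genes above, *Inhba*, which encodes the activin A subunit, fell by 0.63, but did not pass with *Sorcs3* absent from comparison nuclei (edgeR adjusted p = 0.28). *Fstl5*, a follistatin-like gene, had a log2 fold change of -1.01, but 0.15 without the 5-gene nuclei.

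Integrin and matrix genes, the group in which *Npnt* acts, rose in 6 and fell in 2 of 19 genes tested (median 0.14), where 5.26% of all genes rose and 5.25% fell. The rises were 3 of 18 without the 5-gene nuclei (4.78% of all genes), 1 of 12 with *Prox1* required (3.70%) and 0 of 11 with *Sorcs3* absent too (2.03%), and 3 of 19 by DESeq2, while the 2 falls were kept in number on each choice of nuclei. The 2 that fell encode the chains of 1 integrin, which is known to release active TGF-beta. *Itgav*, for the alpha chain, was at 35, 24.6, 71.2 and 19.8 CPM in WT members against 74.8, 35.3, 46.1 and 44.4 CPM, and at 21.3, 21.7, 19.0 and 30.4 CPM in V321L members against 64.1, 84.3, 96.6 and 53.3 CPM. It was lower in 7 of 8 mice, WT M1 being the other, with a log2 fold change of -1.34 ± 0.18. *Itgb8*, for the beta chain, fell by 1.01 in all 8 mice. *Col23a1*, a transmembrane collagen gene, rose by 1.27 (higher in 7 of 8 mice) and *Adamts17*, a secreted protease gene, by 0.43.

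Of 14 SGC genes that the study named, 7 were tested, and 6 fell in members while 0 rose (median -1.12, DESeq2 6 and 0, unadjusted 6 and 0), where 5.25% of all genes fell. The study chose these genes on these samples, and *Sorcs3*, one of them, was part of the rule, so the count is not independent evidence. It stayed at 6 lower and 0 higher of 7 under each of the alternatives above, with medians between -1.14 and -0.79, where between 1.86% and 4.68% of all genes fell. Besides *Nrg1*, *Grm8* and *Itgav*, the gene *Chgb* for the granule protein chromogranin B fell by 1.12. *Penk*, which encodes the enkephalin precursor, had too few UMIs for the filter on low counts. It had 0, 0, 2 and 0 UMIs in WT members and 11, 6, 3 and 7 in WT comparison nuclei. In V321L mice it had 0, 5, 1 and 7 UMIs in members and 36, 69, 61 and 14 in comparison nuclei, 15 in 880 members against 207 in 1982 comparison nuclei. In CPM it was higher in members of WT M1 (17.8 against 10.6 CPM) and V321L M2 (35.5 against 24.1 CPM) and lower in the other 6 mice. Without the filter its log2 fold change was -2.73 (edgeR adjusted p = 1.4e-15).

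Activity-induced genes fell in 7 and rose in 0 of 9 tested (median -0.84, DESeq2 6 and 0, unadjusted 7 and 0), where 5.25% of all genes fell. Most immediate early genes, such as *Fos* and *Arc*, did not reach the filter, and those that fell included *Nr4a2*, a nuclear receptor gene (-1.35), and *Ptgs2*, a prostaglandin synthase gene (-1.25), both below the filter with *Prox1* required. With *Prox1* required 4 of 6 tested genes fell (median -0.82, against 3.91% of all genes), with *Sorcs3* absent from comparison nuclei 3 of 7 (-0.35, against 3.52%) and with both conditions 3 of 6 (-0.50, against 1.86%).

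Genes of GC identity that were not used to choose GC nuclei rose in 9 and fell in 2 of 12 tested (median 0.35), where 5.26% of all genes rose and 5.25% fell. The 2 that fell were *Ntng1*, by 0.76 in all 8 mice, and *Stxbp6*, a syntaxin-binding protein gene named here after its value was seen, by 0.24 in all 8. *Dsp*, which encodes the junction protein desmoplakin, rose by 0.76 and *Tdo2*, a tryptophan dioxygenase gene, by 0.79, beside *Calb1*. This count depended on which comparison nuclei were kept, falling to 7 and 2 of 12 without the 5-gene nuclei (9.45% of all genes called), to 2 and 2 of 11 with *Prox1* required (7.61%) and to 1 and 2 of 11 with *Sorcs3* absent too (3.89%). Among genes of early maturation *Dcx*, the microtubule protein of young neurons, fell by 0.85 and *Prdm8*, a transcription factor gene, rose by 0.83 (*Dcx* was below the filter in every alternative on the nuclei compared), with 1 higher and 2 lower of 6 tested. By DESeq2 these were 1 and 1, and *Dcx* did not pass (adjusted p = 0.093). With *Prox1* required and *Sorcs3* absent 0 rose and 0 fell of 4 tested. Genes of late maturation rose in 3 and fell in 1 of 6 tested (median 0.12), *Calb1* among the rises and *Ntng1* the fall, and in 1 and 1 of 6 with *Prox1* required and *Sorcs3* absent.

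Among adhesion and guidance genes more fell than rose, while 5.25% of all genes fell and 5.26% rose. Of 35 other trans-synaptic adhesion genes 15 fell and 4 rose (median -0.15), of 18 cadherins and protocadherins 6 fell and 3 rose (-0.15), and of 26 axon guidance genes 11 fell and 3 rose (-0.12). With *Prox1* required and *Sorcs3* absent from comparison nuclei these counts were 9 and 1 of 34, 4 and 2 of 17, and 4 and 1 of 23, where 1.86% of all genes fell and 2.03% rose. Without the 5-gene nuclei they were 12 and 4 of 34, 8 and 4 of 18, and 7 and 5 of 26, the last nearly even. *Flrt2*, a ligand of latrophilins, fell by 1.04 and *Sema6d*, a transmembrane semaphorin gene, by 0.65, both under every choice of nuclei named above. *Slit2*, a repulsive guidance ligand gene, fell by 0.86, but by 0.37 without the 5-gene nuclei, and *Tenm4*, a teneurin gene, by 0.99 in the full set and by 0.29 without them, where it did not pass.

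Channel and receptor genes moved both ways. Of 20 glutamate receptor genes 5 rose and 7 fell (median 0.02), with *Grm2* higher by 0.67 and *Grm3* lower by 0.68, both of group II. *Gabra5* and *Gabbr2*, for GABA receptor subunits, rose by 0.28 and 0.27 (2 higher, 0 lower of 12 tested, DESeq2 1 and 0, unadjusted 2 and 2). The balance of the GABA receptor genes turned to 2 higher and 4 lower of 12 without the 5-gene nuclei, and was 0 and 1 with *Prox1* required and 0 and 0 with *Sorcs3* absent too. Of 39 potassium channel genes 4 rose and 10 fell (median -0.06), and of 29 sodium, calcium and other cation channel genes 9 rose and 8 fell (0.07), where 10.5% of all genes were called. With *Prox1* required 4 potassium channel genes rose and 5 fell of 35, and with *Sorcs3* absent too 1 and 2 of 33. The other cation channel genes went to 5 and 3, then to 3 and 1, of 27. *Trpc6* fell by 0.66 while its relative *Trpc5* rose. Among 30 transcription factor genes 11 rose and 4 fell (0.09, DESeq2 8 and 3). The counts were 9 and 2 of 29 without the 5-gene nuclei, 5 and 1 of 28 with *Prox1* required and 4 and 2 of 28 with *Sorcs3* absent too, where 9.45%, 7.61% and 3.89% of all genes were called. The schizophrenia-linked *Zfp804a* fell by 0.86 in the full set and passed under each of these choices of nuclei.

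**Figure D3:**
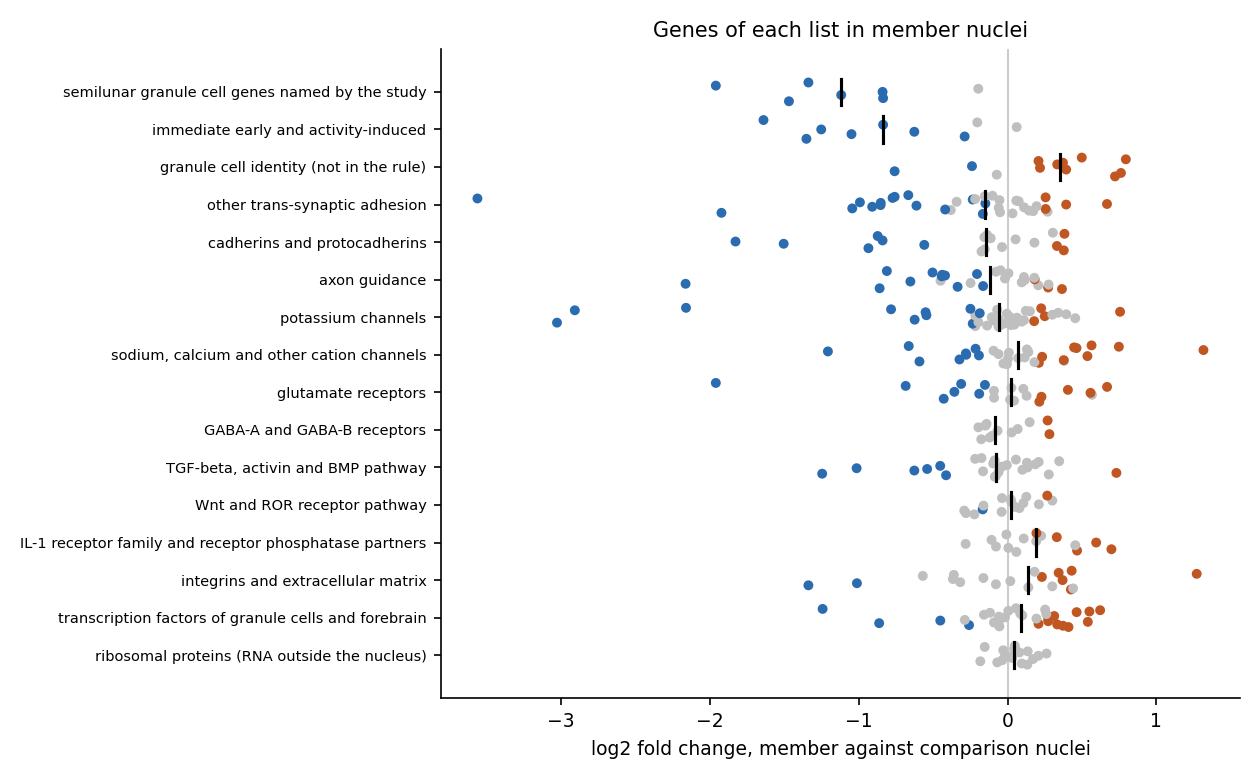
Log2 fold changes of the tested genes of 16 lists between member and comparison nuclei (orange, higher; blue, lower; gray, adjusted p of 0.05 or more by edgeR; vertical spread only separates points) with list medians (black bars). The 7 tested SGC genes of the study sit farthest to the left (median -1.12), and ribosomal protein genes lie around 0 (median 0.05).

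Several of the largest falls in the full set were those of genes that define the 5-gene nuclei, so that their loss without those nuclei is fixed by the choice and is no test. *Nectin3*, an adhesion gene, had a log2 fold change of -3.56, *Sv2b*, a synaptic vesicle gene, -3.22, *Kcnc2*, a Kv3 channel gene, -3.03, and *Spock1*, a proteoglycan gene, -2.78, and they dropped below the filter once those nuclei were left out. *Mgat4c*, which is not one of the 5 genes, had -2.96 and dropped below it too. *Kcnq5*, an M-current channel gene, was at 44.2, 66.1, 347 and 165 CPM in WT members against 452, 1085, 730 and 905 CPM, and at 4.26, 38.2, 41.5 and 5.07 CPM in V321L members against 295, 112, 447 and 172 CPM. Its log2 fold change went from -2.91 to -1.53 without the 5-gene nuclei and to -0.78 with *Prox1* required, both with an adjusted p under 0.05. *Khdrbs3*, a splicing factor gene, went from -2.13 to -0.22 without those nuclei and did not pass. *Dpp10*, for a partner of Kv4 channels, had -2.16 but was higher in members of 5 of 8 mice, and had -0.06 with *Prox1*.

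**Figure D4:**
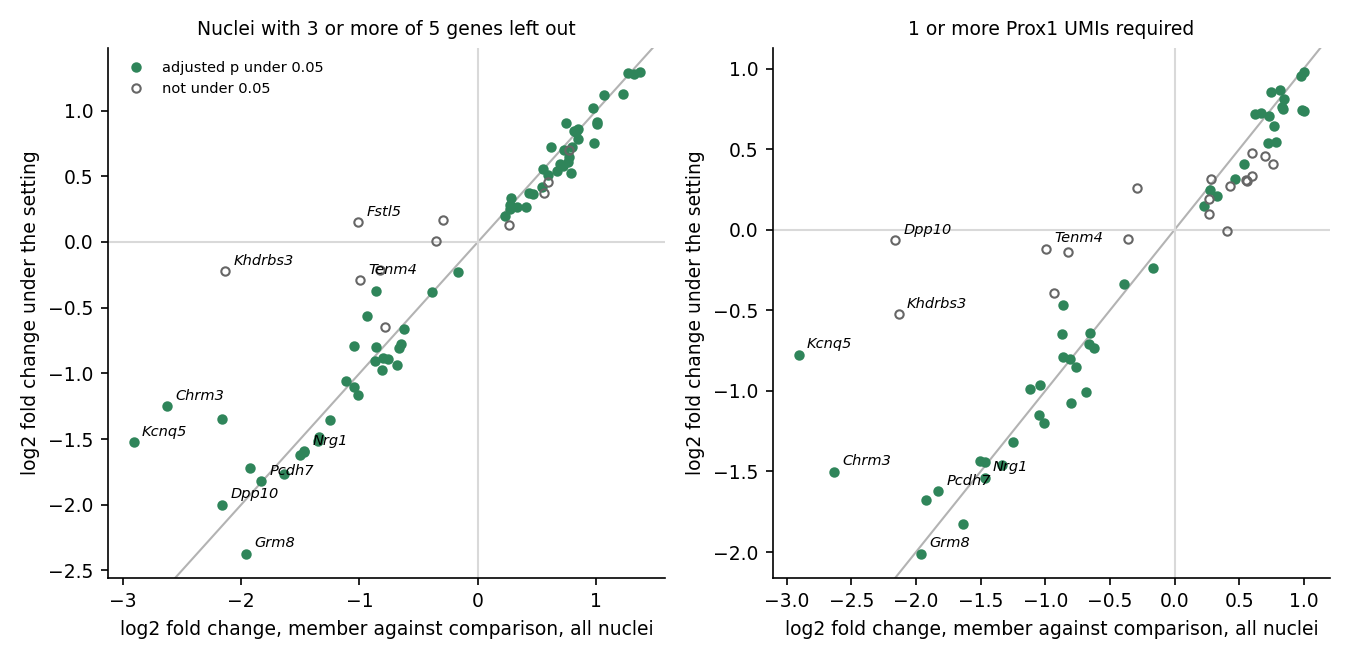
Log2 fold changes of the named genes in the full set (horizontal) and, on the vertical axis, without nuclei that hold 3 or more of *Nectin3*, *Sv2b*, *Kcnc2*, *Chrm3* and *Spock1* (left) or with 1 or more *Prox1* UMIs required (right); filled points have an adjusted p under 0.05 under the alternative and the line marks equal values. *Nrg1*, *Pcdh7* and *Grm8* stay near the line, whereas *Khdrbs3* moves from -2.13 to -0.22 (left) and *Dpp10* from -2.16 to -0.06 (right).

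*Ryr1* and *Capn3*, which with *Fst* mark another small set of GC nuclei, led the rises in the full set. With *Prox1* required none of these 3 genes reached the filter, and in WT mice alone 1 of the 3 was tested and 0 passed by edgeR. In V321L mice alone 3 of 3 rose (median 1.37). Of 2 tested, 2 rose without the 5-gene nuclei (median 1.29) and 2 with *Sorcs3* absent from comparison nuclei (1.15). *Ryr1*, for the skeletal muscle type ryanodine receptor, was at 16.6, 11.7, 26.7 and 19.8 CPM in WT members against 2.27, 8.65, 17.7 and 7.06 CPM. V321L mice had it at 72.4, 48.6, 46.7 and 65.9 CPM against 21.4, 20.8, 18.4 and 25.8 CPM, and the log2 fold change was 1.32 ± 0.20. *Capn3*, a calpain protease gene, rose by 1.37 and *Fst*, for the activin antagonist follistatin, had 65 UMIs in members and 40 in comparison nuclei. Nuclei that met a rule for *Fst*, *Ryr1* and *Capn3* numbered 58 among all GC nuclei (0.558%), and 18 of them were members (2.03% of members). By mouse they numbered 0, 1, 1 and 0 in WT and 14, 22, 15 and 5 in V321L mice. Of these, 0, 0, 1 and 0 in WT and 1, 8, 6 and 2 in V321L mice were members. *Gmnc* rose by 1.23, *Kl*, for the FGF co-receptor Klotho, by 1.07, *Akain1* by 1.004 and *Trabd2b*, for a Wnt-cleaving protease, by 0.98.

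RNA of other cell classes was measured with marker lists. CA pyramidal neuron genes summed to 172 CPM in members and 239 CPM in comparison nuclei and were higher in members of 1 of 8 mice, *Grik4* making up 87.7% of the sum. *Grik4* fell by 0.36 in the full set and had 0.01 without the 5-gene nuclei. The astrocyte gene *Slc1a2*, for a glutamate transporter, fell by 0.39 in all 8 mice, and in WT mice alone the 1 Cajal-Retzius gene tested was called higher (1.53). Of 4 astrocyte genes tested 0 were called with *Prox1* required and *Sorcs3* absent, and 0 of 4 in V321L mice alone. Microglial genes summed to 104 and 83.5 CPM, led by *P2ry12*, with *Inpp5d* at 0 by the rule. Mossy cell genes summed to 474 and 424 CPM, nearly all *Cyp7b1* (96.1%) and with *Drd2* at 0. Astrocyte genes summed to 294 and 343 CPM, GABAergic to 121 and 132 CPM, oligodendrocyte to 426 and 416 CPM, oligodendrocyte precursor to 10.5 and 13.7 CPM, Cajal-Retzius to 23.8 and 15.3 CPM and vascular to 4.01 and 5.996 CPM. Their part in the gene results was not tested. Of 18 ribosomal protein genes 0 were called (edgeR, unadjusted 0, DESeq2 0), and of 12 mitochondrial transcripts 0 (unadjusted 1, DESeq2 0).

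As a description of the same nuclei, all GC nuclei were thinned to 1000 UMIs and ordered by the UMIs of the 4 genes they kept, 6755 with 0, 1702 with 1 and 437 with 2. The order uses the UMIs that chose the members and the genes shown were chosen after their values were seen, so it adds no support to the comparison above. *Nrg1* had mean levels of 702, 473 and 320.9 CPM over 8 mice in that order, *Nrxn3* 2174, 1175 and 953 CPM, *Ntng1* 714, 585 and 504 CPM and *Pcdh7* 240, 159 and 135 CPM. *Chst9* had 241, 294 and 342 CPM, *Acvr2a* 244, 297 and 345 CPM and *Slc4a4*, a bicarbonate cotransporter gene, 874, 1012 and 1128 CPM. Only 169 nuclei held 3 or more UMIs at this depth, and they are not used. The part of the 5-gene nuclei in the first step was not tested.

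**Figure D5:**
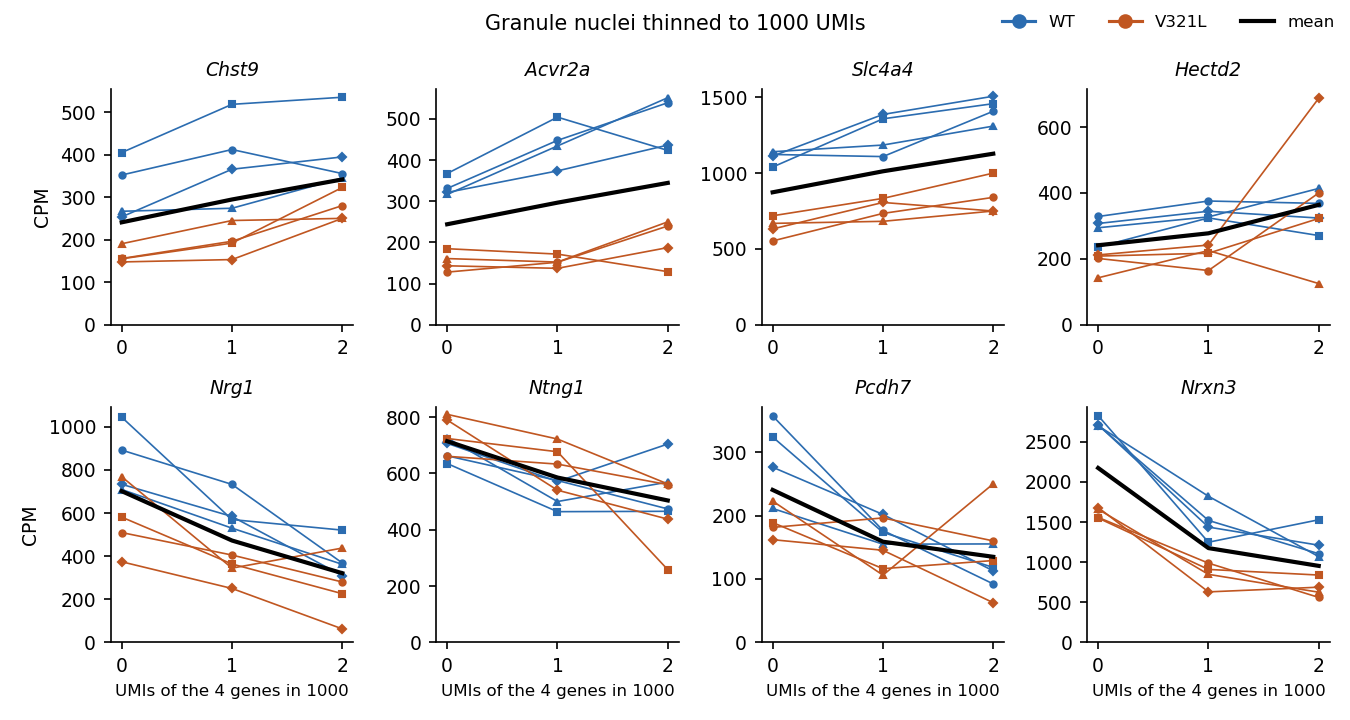
CPM of 8 genes in GC nuclei thinned to 1000 UMIs, by the UMIs of the 4 rule genes left in each nucleus, for each mouse (thin lines) and as the mean of 8 mice (black). Mean *Nrg1* goes from 702 to 320.9 CPM and mean *Chst9* from 241 to 342 CPM, and single mice cross in the sparse last bin, as for *Hectd2* and *Pcdh7* in V321L mice.

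Few windows of accessible chromatin passed the test. ATAC counts were summed over peaks centered within 50 kb of each gene's start site, and 20 of 23448 windows passed the test (0.0853% of the windows), 3 higher and 17 lower in members, with 2032 at an unadjusted p under 0.05. Of these, 3 were higher and 12 lower in members of every mouse, and 5 lay around *S100a* genes whose windows share peaks. The window of *Siah3*, a ubiquitin ligase relative, held 25.9, 28.3, 26.9 and 40.1 CPM of ATAC counts in WT members against 18.1, 21.8, 22.9 and 20.5, and 40.2, 26.2, 23.3 and 26.5 in V321L members against 10.5, 17.5, 13.0 and 12.3. It was higher in members of every mouse (log2 fold change 0.71 ± 0.16, edgeR adjusted p = 0.036). The windows of *S100a6* and *S100a2*, for calcium-binding proteins, fell by 0.68 and 0.72. Those of the predicted genes *Gm11351*, *Gm34256* and *Gm50430* fell by 1.22, 0.98 and 0.98, and those of *1700012A03Rik* and *Gm48050* rose by 0.56 and 0.52. None of these named windows passed with *Prox1* required in both groups, where that of *Siah3* had 0.71 (edgeR adjusted p = 0.67). With windows of 2 kb, 0 of 12769 passed by edgeR, with 677 at an unadjusted p under 0.05. With 50 kb, 0 windows passed without WT F1 or V321L M1, and 49 without V321L M2.

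Around the rule genes themselves the chromatin of members did not differ beyond the test. The window of *Tgfbr1* was higher in members of all 8 mice, at 50.8, 33.7, 30.4 and 29.8 CPM in WT members against 28.6, 24.2, 24.2 and 25.7, and at 26.1, 33.5, 34.0 and 38.2 in V321L members against 19.5, 33.5, 29.7 and 25.5 (log2 fold change 0.35 ± 0.13, edgeR adjusted p = 0.42). *Npnt* had 0.35 ± 0.25 (edgeR adjusted p = 0.76), *Ror1* -0.01 ± 0.22 (adjusted p = 0.997) and *Sorcs3* -0.94 ± 0.34 (adjusted p = 0.39). *Il1rapl2* had no window with a peak in every library. Over all mice the window of *Ror1* held 176 counts in members and 356 in comparison nuclei, and that of *Tgfbr1* 509 and 811. Whether differences of these sizes could be detected was not tested.

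Members differed from comparison nuclei to another extent in the 2 genotypes for 14 of 7241 genes (0.193%), 12 with a higher and 2 with a lower log2 fold change in V321L mice (edgeR, test of the interaction). The fold change of *Trhde*, a peptidase gene, was -1.40 in WT and 0.21 in V321L mice, and that of *Trps1* -2.62 and -0.47. *Raver2* had -1.77 and 0.03, *Nell1* -3.43 and -0.60, and *Nectin3* -4.29 and -1.63, while *Ntm*, an adhesion gene, had -0.15 and -1.63 and *Sgcz* -0.79 and -1.90. The 5-gene nuclei made up 7.61%, 12.7%, 13.7% and 14.04% of WT and 8.97%, 2.48%, 4.98% and 4.69% of V321L comparison nuclei. Their content differed by mouse too. They had *Trps1* at 4451, 4111, 2051 and 2409 CPM in WT and 598, 359, 63.9 and 908 CPM in V321L mice. In V321L M1 the other comparison nuclei had it at 55.8 CPM, and *Nectin3* was at 47.95 against 14.9 CPM. With *Prox1* required in both groups only 1 gene was called, and the difference for *Ntm* turned direction.

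Between the genotypes, 3651 of 6593 genes differed within members (55.4%), 1952 higher (29.6%) and 1699 lower (25.8%) in V321L mice. Comparison nuclei differed in 5382 of 8767 genes (61.4%). Ribosomal protein genes, whose RNA lies mostly outside the nucleus, were higher in V321L members in 18 of 18 genes with a median log2 fold change of 4.404, and mitochondrial transcripts in 8 of 11 (median 1.86). Without TMM scaling the split was 2737 higher and 865 lower, and the median of all genes moved from 0.04 to 0.42. The genotype cannot be told apart from these differences between the libraries, so the following values are given as measured. The log2 fold change of V321L against WT members was -0.75 for *Nrg1* with TMM scaling and -0.38 without it (266 against 365 CPM). It was -1.52 and -1.16 for *Acvr2a*, 1.42 and 1.80 for *Ryr1* and 1.41 and 1.81 for *Fst*, and these 4 genes were called by edgeR under both scalings. *Calb1* had -0.10 with TMM and 0.27 without it and *Ntng1* -0.04 and 0.32, so their direction turned with the scaling, and neither passed by edgeR. Of 7 SGC genes of the study 4 were higher and 1 lower in V321L members, *Nrg1* being the lower one.

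Against the 445 GC nuclei with at least 2 *Sorcs3* UMIs and under 3 UMIs of the 4 genes, members differed in 892 of 4520 genes (19.7%), 472 higher (10.4%) and 420 lower (9.29%). These nuclei are held apart from members by the rule, and the members are the same as in the comparison above. *Chst9*, as a description, was at 595, 535, 454 and 381 CPM in WT members against 174, 153, 46.7 and 90.7 CPM in *Sorcs3* nuclei, and at 264, 297, 299 and 213 CPM in V321L members against 32.4, 67.8, 67.8 and 7.41 CPM, without overlap (log2 fold change 2.14). *Dsp* rose by 1.81, *Grb14* by 1.67, *St5* by 1.65 and *Arhgef28*, a guanine nucleotide exchange factor gene, by 1.54. The largest falls were -4.47 for *Sorcs1*, a relative of *Sorcs3*, -3.95 for *Mir670hg*, -3.80 for *Nell1*, -3.25 for *Grm8* and -3.20 for the muscarinic receptor gene *Chrm3*. Apart from *Chst9*, these genes passed under every alternative in which they had a value for this comparison. Of the 10 genes named for this comparison, *Chst9* among them, 5 had a value with *Prox1* required in both groups. *Chrm3* is one of the genes that define the 5-gene nuclei, which were not left out of the *Sorcs3* nuclei. SGC genes of the study fell in 7 of 7 (median -1.73), GC identity genes outside the rule rose in 8 and fell in 1 of 11 (0.65), and activity-induced genes fell in 5 of 6 (-1.59).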

How the data were processed

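The deposited RNA values are unnormalized UMI counts per gene and the deposited ATAC values are counts in peaks called by the authors in each library separately. The submitters' processing notes name Cell Ranger, Seurat, Signac and the mm10 build, with versions not given in the sources used here. Nuclei had 501 to 8916 RNA UMIs, 251 to 3307 genes, under 2.787% mitochondrial UMIs and at least 500 ATAC counts. Doublets (Scrublet in scanpy 1.11.5) were kept and left out as an alternative.

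UMIs were summed per mouse over members and over matched comparison nuclei and tested in R 4.3.3 with edgeR 4.0.16 (quasi-likelihood, TMM, filterByExpr, mouse as a block, Benjamini-Hochberg threshold 0.05). The 5 rule genes were left out of the RNA tests. DESeq2 1.42.0 was the second tool. ATAC counts were summed over peaks centered within 50 kb (alternative 2 kb) of a start site with a peak in every library. Shares were compared by two-sided exact permutation. RNA CPM are relative to the UMIs of the summed nuclei. ATAC CPM are relative to the counts summed over all windows, where a peak counts in each window that holds it. The fits were first tested on simulated data. Limits from 0 nuclei are 3 over the number of nuclei unless an exact interval is named. Intervals and limits cover counting error only. Gene positions are those of RefSeq for GRCm38.p6. Sums and matching were made with pandas 2.3.3 and scipy 1.17.1 under Python 3.11.15.

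The members, gene lists and tests were chosen with earlier results of these data known. Named genes were those called with the same direction in every mouse and a mean of at least 10 CPM (the 15 largest rises and 10 largest falls), up to 4 called genes per list, 9 fixed genes, and the 5 largest in each direction among windows changed the same way in every mouse, in the interaction and against *Sorcs3* nuclei. Some genes that the rule chose are not reported here. *Hs3st4*, *Trps1* levels, *Glis3* levels and the gradient genes were named after their values were seen. Mice of 1 genotype are separate animals. Alternatives changed the tool, scaling, filter, matching, threshold, doublets, depth and mice.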

Additional observations from a re-analysis of the deposited data

Results flagged for a closer look

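In groups of 4 mice, the most distant value was compared with the range of its group for the genes whose values are given mouse by mouse, 86 groups in all, of which chance flags about 1 in 20 and 2 were found. *Calb1* in WT members was 230.3 CPM in F1, apart from the other 3 mice. *Fbn1* in V321L comparison nuclei was 28.11 CPM in M1, apart from the other 3 mice.

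The change between members and comparison nuclei differed between the genotypes by the test of the interaction for 7 named genes. The log2 fold change in V321L minus that in WT mice was 2.839 for *Nell1*, 2.669 for *Nectin3*, 2.17 for *Trps1*, 1.782 for *Raver2*, 1.61 for *Trhde*, -1.456 for *Ntm* and -1.089 for *Sgcz*. For *Trhde* the edgeR adjusted p was 2.5e-06, the smallest of the 14 genes called. The share and the content of 5-gene nuclei in comparison nuclei differed between the mice as given above. Their part in these values was not tested for single genes beyond the *Prox1* alternative. Under that alternative the difference for *Ntm* turned direction.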

How the results depend on the processing

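The difference of member shares, 0.876 percentage points higher in V321L mice, was reversed with thinning to 1000 UMIs (-1.46, or -3.53 when 2 UMIs sufficed), with 4 or more UMIs (-0.378) and with *Prox1* required (-1.93), and ran from -0.791 to 2.22 when 1 mouse was left out, being -0.509 without WT M1, -0.791 without V321L F2 and -0.0335 without V321L M1. Each count below is the total of its own fit and not a part of the full-set count. Genes called between members and comparison nuclei numbered 761 in the full set, 486 with DESeq2 and 477 with *Sorcs3* absent from comparison nuclei. They numbered 274 after thinning, 426 with *Prox1* and 203 with both conditions. WT mice alone gave 463, V321L mice alone 468, and leaving out 1 mouse 602 to 754. Named genes that turned direction were *Prox1* (-0.00517 with *Prox1* required, -0.0333 with both conditions), *Fstl5* (0.15 without the 5-gene nuclei, 0.25 in V321L mice), *Grik4* (0.011 without the 5-gene nuclei) and *Camk4*, which did not pass in the full set (-0.29) and had 0.0482 unmatched, 0.26 with *Prox1*, 0.16 without the 5-gene nuclei and 0.19 with both conditions. Called windows numbered 20 in the full set, 6 with DESeq2, 3 after thinning and 3 with *Prox1*. They numbered 0 within 2 kb and 0 to 49 without 1 mouse. None of the windows named above as called was among the 3 with *Prox1*. No window passed without WT F1 or V321L M1, 1 without WT F2, 2 without V321L F2, 6 without WT M2 and 49 without V321L M2. Called interaction genes numbered 14 in the full set, 1 with DESeq2, 31 without the filter and 5 with *Sorcs3* absent. With *Prox1* 1 was called (where *Ntm* had 0.83). Without 1 mouse 5 to 19 were called, being 7 without WT F2, 9 without V321L F2 and 5 without V321L M2. Genotype differences in members numbered 766 after thinning and 3255 to 4188 without 1 mouse. The *Sorcs3* comparison gave 519 calls with *Prox1* and 756 to 910 without 1 mouse. Fewer genes pass the filter after thinning (2573 in members, 2040 between genotypes). Other causes were not tested.

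Without mouse as a block, 33 genes, 0 windows (1020 at an unadjusted p under 0.05 by edgeR) and 255 genes against *Sorcs3* nuclei were called. Across the genotypes the labels F1 to M2 do not pair the animals, with correlations of -0.0179 to 0.179 between mice of the same label and 1 of 4 over 0.1. With that label as a block, shares gave p = 0.875 (exact sign-flip test, smallest possible 0.125) and 3598 genes differed between the genotypes.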

Other observations

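Of 7 genes of the septotemporal axis 3 were tested, of which 1 rose, 1 fell and 1 did not pass. *Gsg1l*, for an AMPA receptor auxiliary protein, fell by 1.47 in all 8 mice, and *Lct*, the lactase gene that is high in dorsal GCs, rose by 0.60 in 7 of 8 mice but did not pass with *Prox1* required, with *Sorcs3* absent from comparison nuclei or by DESeq2. *Plk5*, a GC gene used in the choice of nuclei, was lower in members of all 8 mice (-0.80), given as a description.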
